A study of Mus musculus with 6 samples.

Results

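Neuregulin and the EGF receptor family were followed across 6 RNA-seq libraries of mouse left ventricle through 7 genes chosen by name from a gene table of 34745 genes: the ligand genes Nrg1 and Hbegf, the receptor genes Egfr, Erbb2, Erbb3 and Erbb4, and the inhibitor gene Errfi1. All 7 were found once in the table and all 7 passed the filter on low counts. The libraries came from wild-type male C57BL/6 mice, an inbred strain, given as 8 weeks old. 3 libraries are labelled TAC (transverse aortic constriction, an operation that narrows the aortic arch, making the left ventricle work against a raised pressure) and 3 are labelled Sham (a like operation with no ligature), with tissue taken at week 6. The labels name no transgene or drug in either group, and libraries were made from total RNA. The labels do not say that each library came from its own mouse, so the p-values rest on library-to-library spread alone, which may be technical.

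Receptors of this family are tyrosine kinases that act in pairs. EGF-type ligands such as HB-EGF are made as membrane-bound precursors, shed by metalloproteases and bound by EGFR, HB-EGF also by ErbB4, whereas neuregulins bind ErbB3 and ErbB4. ErbB2 has no known ligand and serves as a partner, and ErbB3 has little kinase activity of its own. In the adult heart, neuregulin-1 from endothelial cells is known for signalling to cardiomyocytes through ErbB4 and ErbB2, and loss of either receptor in cardiomyocytes is known to cause dilated cardiomyopathy. MIG6, the protein of Errfi1, is a feedback inhibitor that binds the kinase domain of these receptors.

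The labels went against 2 known marks of pressure overload. Nppa, the gene of atrial natriuretic peptide, had 92.2, 64.3 and 95.1 CPM (counts scaled to the library size with TMM factors) in TAC-labelled libraries 1, 2 and 3 and 772, 1894 and 595 CPM in Sham-labelled libraries 1, 2 and 3. Acta1, the skeletal alpha-actin gene of the fetal heart programme, had 641, 446 and 121 CPM in the TAC-labelled libraries and 3282, 5030 and 3060 CPM in the Sham-labelled ones. Both differences passed the edgeR test, Nppa at a log2 difference of -3.70 (adjusted p = 0.0222) and Acta1 at -3.23 (adjusted p = 0.0448). Every direction below is therefore that of the labels, and TAC 1 or Sham 1 stands for the library so labelled. The total gene counts ran from 17399510 to 28401399 per library. On the first principal component (43.9% of the variance) the TAC-labelled libraries lay on 1 side and the Sham-labelled ones on the other, and on the second (22.1%) TAC 3 scored 0.74 while the other 5 scored between -0.47 and 0.27.

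Genes that mark cardiomyocytes were present at a summed FPKM (counts scaled to gene length and to the library total, as deposited) of 9583 to 10510 over 9 genes in the TAC-labelled libraries and 6764 to 8985 in the Sham-labelled ones. The 9 fibroblast markers summed to 372 to 505 FPKM in the TAC-labelled libraries and 593 to 739 in the Sham-labelled ones. The 8 macrophage markers summed to 89.1 to 159 against 206 to 216, the 10 endothelial markers to 180 to 192 against 178 to 207, and the 9 Schwann cell and nerve markers to 4.78 to 4.96 against 3.66 to 4.88. In these bulk libraries fewer cells of a type and less RNA per cell cannot be told apart. No marker of these lists was at 0 in all libraries. How far these marker differences bear on the 7 genes was not tested.

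By mean length-scaled level over the 6 libraries the 7 genes fell in the order Hbegf, Errfi1, Erbb3, Erbb4, Egfr, Erbb2, Nrg1. Over all 6 libraries Hbegf averaged 15.1 ± 11.5 FPKM (SD, n = 6) and Errfi1 10.1 ± 7.15 FPKM. Erbb3 followed at 5.48 ± 1.70 FPKM. Erbb4 at 2.54 ± 1.08, Egfr at 2.34 ± 0.867 and Erbb2 at 2.26 ± 0.339 FPKM did not differ from each other beyond their spread, and Nrg1 stood lowest at 0.593 ± 0.227 FPKM. Hbegf exceeded Errfi1 in 5 of 6 libraries and Errfi1 exceeded Erbb3 in 4 of 6, so those neighbours also overlapped, while Erbb3 exceeded Erbb2 in 6 of 6 libraries and Erbb4 in 5 of 6, and Erbb2 exceeded Nrg1 in 6 of 6. The order differed between the groups: Errfi1 (mean 10.9 FPKM) stood above Hbegf (8.60) in the TAC-labelled libraries, and Erbb4 (1.81) stood below Egfr (2.85) and Erbb2 (2.45) in the Sham-labelled ones. The length behind each FPKM is not documented, and for 1208 of 22073 genes it is longer than the whole locus, so close levels of different genes were not ranked further.

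None of the 7 genes passed an adjusted p of 0.05 in edgeR's quasi-likelihood test, which called 1.43% of the 15198 genes tested (0.322% higher under the TAC label and 1.11% higher under the Sham label). At an unadjusted p under 0.05 there were 2 of the 7, Erbb4 and Hbegf, against 20.9% of all genes. 4 of the 7 had a negative log2 difference (labelled TAC minus labelled Sham) and 3 a positive one, with a median of -0.18 against 0.01 over all genes tested. DESeq2 called 1 of the 7, Erbb4, and 7.79% of all genes. The groups did not overlap for 1 of the 7, again Erbb4, against 27% of all genes.

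**Figure D1:**
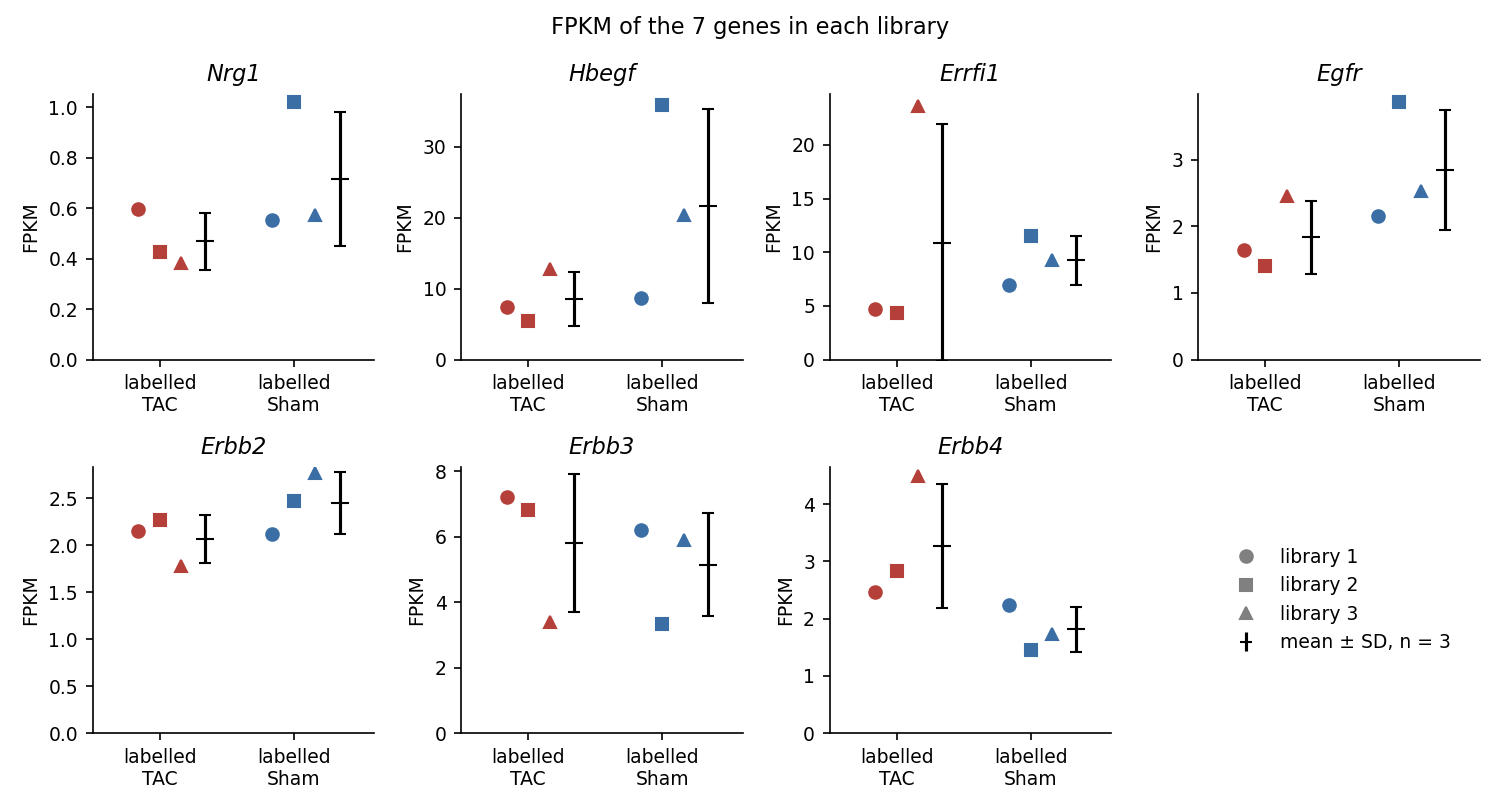
FPKM of each of the 7 genes (y axis, from 0) in the TAC-labelled libraries (red) and Sham (blue), with the library number as the marker shape and the mean ± SD of 3 libraries in black. Erbb4 is the gene whose groups do not overlap, and TAC 3 holds the highest Errfi1 and Erbb4 values.

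Nrg1, the gene of neuregulin-1, gave few reads. The counts were 27, 18 and 16 in TAC-labelled libraries 1, 2 and 3 and 24, 61 and 21 in Sham-labelled libraries 1, 2 and 3, or 0.597, 0.426 and 0.384 against 0.553, 1.02 and 0.574 FPKM. The library labelled Sham 2 was highest and the groups overlapped. The log2 difference was -0.56 (SE 0.37, edgeR adjusted p = 0.428), and it was -0.17 without Sham 2. In the deposited table Nrg1 (chromosome 8, 31818028 to 31918203 on GRCm38) spans 100176 bases, 9.24% of the 1084158 bases that RefSeq gives it on the same build, while the spans of the other 6 genes are 99.2% to 103% of RefSeq's. Neuregulin-1 has isoforms that start from promoters far apart, and the table's span leaves out part of that locus.

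Hbegf, the gene of heparin-binding EGF-like growth factor (chromosome 18, 36504929 to 36515805), had the widest range of the 7 from lowest to highest library. It had 7.49, 5.48 and 12.8 FPKM in the TAC-labelled libraries and 8.63, 36.0 and 20.4 FPKM in the Sham-labelled ones. The libraries labelled Sham 2 and Sham 3 lay above all others, but Sham 1 lay below TAC 3, so the groups overlapped. The fitted level was 2.43-fold higher in the Sham-labelled libraries (log2 difference -1.28, SE 0.51, edgeR adjusted p = 0.204). Without Sham 2 the log2 difference was -0.66, and without Sham 1 it was -1.67 with an adjusted p of 0.0699 in edgeR's test.

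Egfr, a receptor of HB-EGF (chromosome 11, 16752203 to 16918158), had 1.64, 1.41 and 2.46 FPKM in the TAC-labelled libraries and 2.15, 3.86 and 2.53 FPKM in the Sham-labelled ones. Here too Sham 2 was highest and TAC 3 lay among the Sham-labelled libraries. The log2 difference was -0.58 (SE 0.28, edgeR adjusted p = 0.276), and -0.27 without Sham 2. Errfi1 (chromosome 4, 150853919 to 150868892) had 4.73, 4.39 and 23.6 FPKM in the TAC-labelled libraries and 6.96, 11.5 and 9.30 FPKM in the Sham-labelled ones. Its library labelled TAC 3 stood 5.38 times above TAC 2, and the other libraries labelled TAC were the lowest of all 6. The log2 difference of Errfi1 was 0.29 (SE 0.61, edgeR adjusted p = 0.826), and without TAC 3 its sign turned to -0.95 (adjusted p = 0.117). The sign was also negative with limma and in the fit blocked by replicate number, so no direction can be given for Errfi1.

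Hbegf, Egfr and Errfi1 shared much of their order over the libraries, and Erbb3 ran nearly the other way. In scaled CPM TAC 2 and TAC 1 were the lowest and Sham 1 the next for each of the 3 genes. The library labelled Sham 2 was the highest for Hbegf and Egfr, and TAC 3 was the highest for Errfi1. For Erbb3 TAC 1, TAC 2 and Sham 1 were the highest, and Sham 2 and TAC 3 the lowest. The order thus cut across the labelled groups, with TAC 3 beside the Sham-labelled libraries. These are 6 libraries that share their depth and makeup between all genes, and the shared order is a description.

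**Figure D2:**
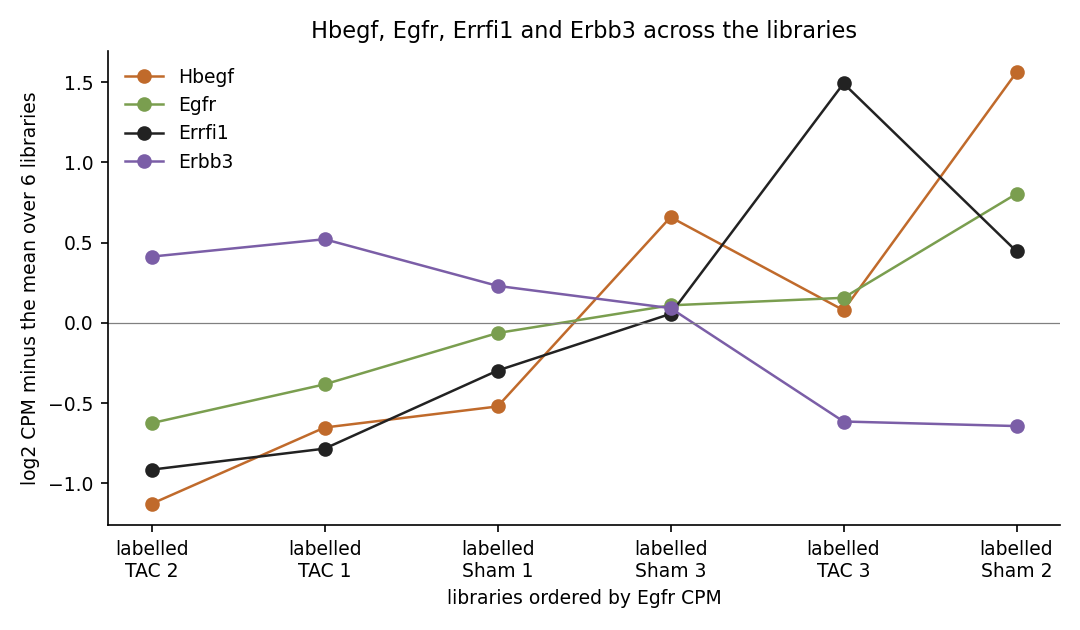
Scaled CPM of Hbegf, Egfr, Errfi1 and Erbb3 on a log2 scale, each minus its mean over the 6 libraries (y axis), with the libraries ordered by their Egfr level (x axis) and lines joining the points of a gene. Hbegf, Egfr and Errfi1 are lowest in TAC 2 and TAC 1, where Erbb3 is highest.

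The windows of 250 bases before the RefSeq starts of Egfr and Errfi1 are shown because the receptor and its inhibitor shared most of that order, and for Errfi1 the outer of its 2 RefSeq windows was taken. They are 5′ to 3′ on the plus strand of GRCm38.p6, at chr11:16751953-16752202 for Egfr and chr4:150853546-150853795 for Errfi1, with motif matches in capitals.
Egfr: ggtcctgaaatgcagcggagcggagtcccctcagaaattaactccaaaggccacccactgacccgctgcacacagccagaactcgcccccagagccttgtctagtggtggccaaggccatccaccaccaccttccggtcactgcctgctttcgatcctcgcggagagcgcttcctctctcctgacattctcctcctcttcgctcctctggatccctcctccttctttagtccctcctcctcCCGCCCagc
Errfi1: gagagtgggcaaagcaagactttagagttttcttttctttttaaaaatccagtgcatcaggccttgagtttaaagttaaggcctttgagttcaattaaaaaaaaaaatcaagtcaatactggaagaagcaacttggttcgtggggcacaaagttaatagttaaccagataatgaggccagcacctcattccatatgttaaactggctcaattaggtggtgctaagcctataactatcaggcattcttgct
The bases G and C made up 60.8% of the Egfr window and 38% of the Errfi1 window. Both strands were searched for the GC box (GGGCGG), the CRE half-site (TGACG), the E-box (CACGTG), the AP-1 site (TGANTCA) and the CCAAT box (CCAAT), and with 1 match in all no matches overlapped. Egfr held 1 match, a GC box 9 to 4 bases before the start, and Errfi1 held 0 matches to these letters. Of 32851 windows of the same length in the RefSeq table, 32.7% held a GC box, 17.8% a CRE half-site, 6.02% an E-box, 6.75% an AP-1 site and 33.8% a CCAAT box. Of the 7 genes 4 had a window in that table: Egfr, Erbb2, Erbb4 and Errfi1.

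Among the neuregulin receptors, Erbb4 was higher in each library labelled TAC than in any labelled Sham. Erbb4 (chromosome 1, 68032186 to 69108059), the neuregulin receptor of cardiomyocytes, had 2.47, 2.83 and 4.49 FPKM in the TAC-labelled libraries and 2.24, 1.46 and 1.74 FPKM in the Sham-labelled ones. The closest pair was TAC 1 and Sham 1, at 32.7 and 28.2 scaled CPM. The fitted level was 1.88-fold higher in the TAC-labelled libraries (log2 difference 0.91, SE 0.25), with an adjusted p of 0.109 in edgeR and 0.0123 in DESeq2. Without TAC 3, which had the highest value, the log2 difference was 0.63 (edgeR adjusted p = 0.168). Beside it, the log2 differences of the 9 cardiomyocyte markers had a median of 0.37, with 7 positive and 2 negative. The groups did not overlap for 7 of these 9 markers, against 27% of all genes. Their part in the Erbb4 difference was not tested.

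Erbb2 (chromosome 11, 98412470 to 98437716), the partner receptor without a ligand, had the narrowest range. It had 2.15, 2.27 and 1.78 FPKM in the TAC-labelled libraries and 2.12, 2.47 and 2.77 FPKM in the Sham-labelled ones. The groups overlapped, and the log2 difference was -0.18 (SE 0.15, edgeR adjusted p = 0.546). The span of Erbb2 overlaps that of Mien1 by a few bases in the table, and the rule for shared reads was not stated in the labels or file headers.

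Erbb3, the receptor with little kinase activity of its own (chromosome 10, 128567523 to 128589652), had 7.22, 6.81 and 3.39 FPKM in the TAC-labelled libraries and 6.21, 3.34 and 5.89 FPKM in the Sham-labelled ones. The libraries TAC 3 and Sham 2 lay low and the other 4 lay between 5.89 and 7.22. The log2 difference was 0.25 (SE 0.32, edgeR adjusted p = 0.707), 0.53 without TAC 3 and 0.03 without Sham 2. Erbb3 is a known gene of Schwann cells, whose markers are given above. Of the 9 such markers 7 were tested and 0 passed in edgeR, against 1.43% of all genes. At an unadjusted p under 0.05 in edgeR there were 3, against 20.9% of all genes. All 3 were higher in the TAC-labelled libraries, and of the 7 tested 4 had a positive log2 difference and 3 a negative one. The summed FPKM of the 9 markers was 4.90 in TAC 3, inside the TAC-labelled range, and 3.66 in Sham 2, the lowest of the 6 libraries. Their part in the Erbb3 levels was not tested.

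The share of each receptor in the summed FPKM of the 4 receptors was then compared, because the receptors pair with each other. These shares rest on the undocumented gene lengths and on bulk tissue that pools cell types. They do not show which receptors meet in a cell. Their sum hardly moved, from 11.1 to 13.5 FPKM over the 6 libraries. Erbb3 held the largest share in 4 of the 6 libraries, Erbb4 in TAC 3 and Egfr in Sham 2. The share of Erbb3 was 53.6%, 51.1% and 28.0% in the TAC-labelled libraries and 48.8%, 30.0% and 45.5% in the Sham-labelled ones. Erbb4 made up 18.3%, 21.3% and 37.1% in the TAC-labelled libraries and 17.6%, 13.1% and 13.4% in the Sham-labelled ones, so that its groups did not overlap. Its mean share was 25.6% ± 10.1 (SD, n = 3) against 14.7% ± 2.51 (exact two-sided permutation p = 0.1, the smallest that 3 against 3 libraries allow, and 0.4 adjusted over the 4 receptors). Without TAC 3 the difference fell from 10.9 to 5.09 percentage points. Egfr averaged 14.3% ± 5.19 against 23.7% ± 9.60 (exact permutation p = 0.3) and Erbb2 15.9% ± 1.17 against 20.1% ± 3.02 (exact permutation p = 0.2), with a lower mean but overlapping libraries in the TAC-labelled group for both. Without Sham 2 the Egfr difference fell in size from -9.40 to -3.91 percentage points. The share of Erbb3 averaged 44.2% ± 14.1 against 41.5% ± 10.1 (exact permutation p = 0.6), and its difference changed sign without TAC 1, TAC 2 or Sham 2.

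**Figure D3:**
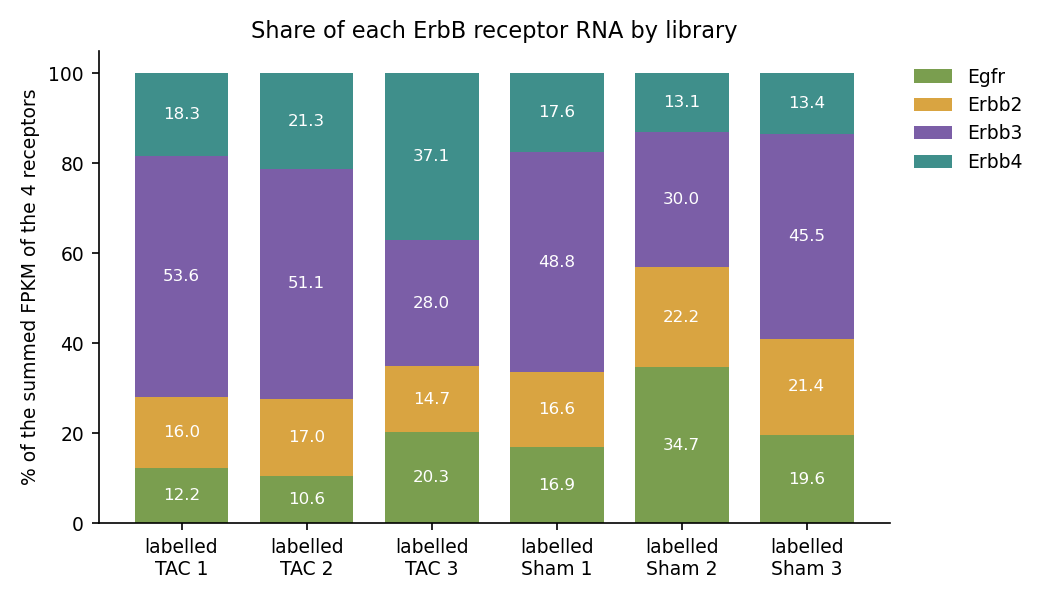
Share of Egfr, Erbb2, Erbb3 and Erbb4 in the summed FPKM of the 4 receptors (y axis, percent) in each library (x axis). Erbb4 takes 37.1% in TAC 3 and 13.1% to 21.3% in the other 5, and Egfr takes 34.7% in Sham 2.

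The second deposited table, of long non-coding RNA (lncRNA) transcripts, gave another readout at the same loci. 43 of its 43234 transcripts overlapped 1 of the 7 genes or lay within 10 kb of it: 25 at Erbb4, 6 at Egfr, 5 at Nrg1, 4 at Errfi1, 2 at Erbb2, 1 at Hbegf and 0 at Erbb3. Of the 28 that passed the filter, 0 passed an adjusted p of 0.05 in edgeR, which called 0.106% of 16035 transcripts, and 3 had an unadjusted p under 0.05, against 12.6% of all transcripts. That last count was 11 without TAC 3, 1 without Sham 1 or Sham 2, 2 without TAC 1 and 0 without TAC 2 or with the replicate block. The shares of all transcripts in those fits are not given here, so these counts cannot be set against the whole table. At Erbb4, 18 of 20 tested transcripts had a positive log2 difference, against 50.4% of all transcripts, with a median of 0.79 against 0.00. These 20 lie inside the same gene and are not independent of each other, so their count is a description. All 4 tested at Nrg1 (median -0.75) and all 3 at Egfr (median -0.38) had a negative one, the sign of their genes. Of the 4 at Nrg1, 2 lay outside the gene's span in the table and inside that of RefSeq. The remaining ones at Nrg1 and all 3 at Egfr lay inside their gene's span and were unspliced. With no strand setting stated, their reads and those of the gene's unspliced RNA cannot be told apart.

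All 25 transcripts at Erbb4 lay inside the gene, from 8.7 to 1019 kb from its start, and 24 were unspliced. No source at hand states the strand setting of the counting, so reads of such transcripts and of unspliced Erbb4 RNA cannot be told apart. Summed over the 25, the counts were 1288, 1224 and 599 in the TAC-labelled libraries and 693, 427 and 666 in the Sham-labelled ones, or 62.3, 62.3 and 30.4 against 33.1, 15.1 and 36.2 CPM on the gene table's scale. The libraries labelled TAC 1 and TAC 2 stood above the other 4, and TAC 3, which had the most Erbb4 gene counts, lay among the Sham-labelled libraries. The mean sum was 51.7 ± 18.4 against 28.1 ± 11.4 CPM (SD, n = 3, exact two-sided permutation p = 0.3). Without TAC 3 the difference rose from 23.6 to 34.2 CPM (exact permutation p = 0.2, the smallest that 2 against 3 libraries allow). It fell to 18.25 CPM without TAC 1, 18.23 without TAC 2 and 17.03 without Sham 2 (exact permutation p = 0.6 for each). The difference was 26.1 CPM without Sham 1 and 27.6 without Sham 3 (exact permutation p = 0.4 for each). This comparison of sums was not planned beforehand.

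Set against the gene's own counts, the sum was 1.91, 1.69 and 0.528 times the Erbb4 count in TAC-labelled libraries 1, 2 and 3 and 1.18, 0.810 and 1.73 times in Sham-labelled libraries 1, 2 and 3 (exact permutation p = 0.9). The lowest ratio was thus that of TAC 3, and the groups overlapped fully. In the first 300 kb, a distance chosen after the values were seen, TAC 1 and TAC 2 were both above the other 4 libraries for 13 of 13 transcripts, and beyond it for 2 of 12, where levels were lower and 5 of the 12 did not pass the filter. The first 13 summed to 53.3, 52.4 and 23.4 CPM in the TAC-labelled libraries and 24.1, 12.6 and 27.4 CPM in the Sham-labelled ones. The other 12 summed to 8.94, 9.88 and 7.07 against 9.09, 2.47 and 8.74 CPM, so that Sham 2 alone stood apart there.

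**Figure D4:**
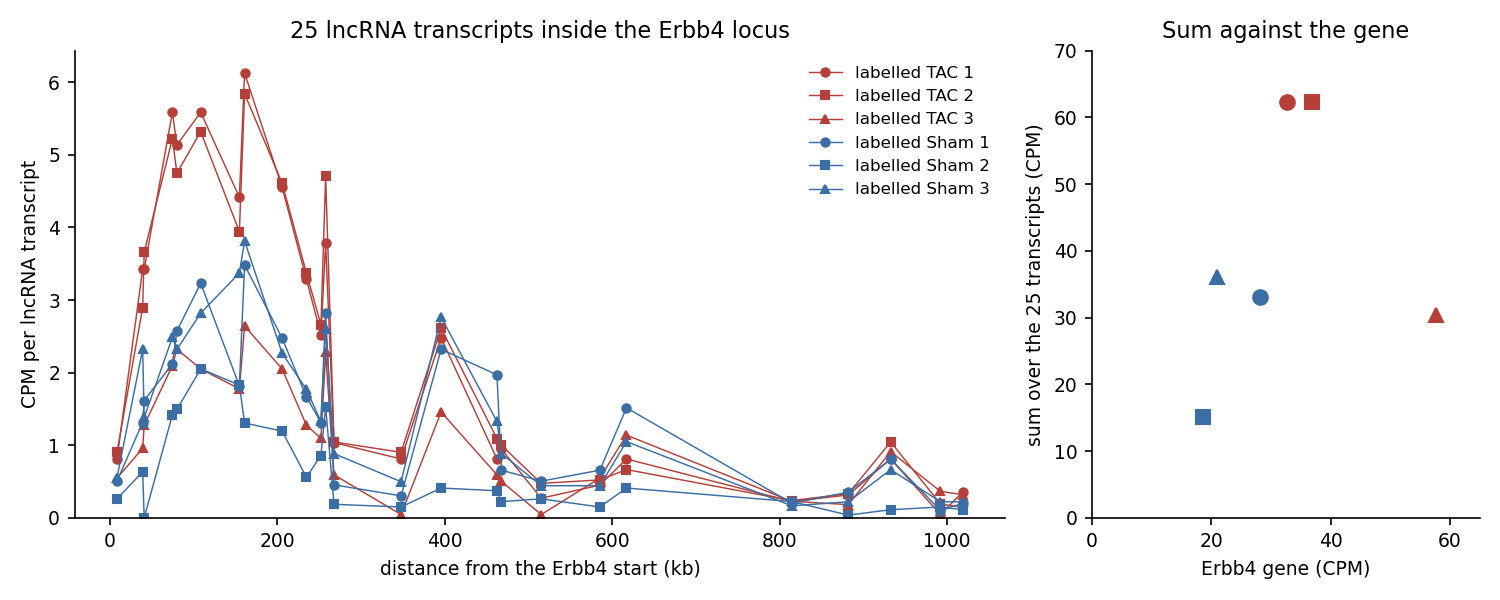
Left, CPM of each of the 25 lncRNA transcripts inside Erbb4 (y axis) against its distance from the Erbb4 start in kb (x axis), 1 line per library. Right, their summed CPM against the CPM of the Erbb4 gene: TAC 1 and TAC 2 reach 62.3 CPM, and TAC 3 has the highest gene level with a sum of 30.4 CPM.

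The 5 transcripts inside Egfr summed to 7.15, 7.94 and 18.0 CPM in the TAC-labelled libraries and 12.4, 14.5 and 12.3 CPM in the Sham-labelled ones, with TAC 3 the highest (exact permutation p = 0.6). The sum was 0.305 to 0.593 times the Egfr count over the 6 libraries.

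The pathway around the 7 genes was described with 7 lists of 117 other genes. Of the 114 tested, 0 passed an adjusted p of 0.05 in edgeR, against 1.43% of all genes, and DESeq2 called 7, all higher in the Sham-labelled libraries, against 7.79% of all genes. At an unadjusted p under 0.05 there were 24 (21.1%, against 20.9% of all genes), of which 21 were higher in the Sham-labelled libraries and 3 in the TAC-labelled ones, against 11.4% and 9.56% of all genes. The 24 became 13 without Sham 2, 15 without Sham 3, 16 without TAC 1 or TAC 2 and 33 with library totals without TMM. Over all genes the count at that threshold was 3178. It became 2103 without Sham 2, 2380 without Sham 3, 2564 without TAC 1, 2688 without TAC 2 and 3183 with library totals. Of the 114, 76 had a negative log2 difference, against 49.1% of all genes, and the median was -0.11 against 0.01. The groups did not overlap for 32 (28.1%, against 27% of all genes). The sign count ran from 74 to 83 of 114 under other scalings, DESeq2 and the replicate block. Beside it, the fibroblast markers had a median of -0.69 and the macrophage markers of -0.65, and their part in these differences was not tested.

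Of the other ligands, Ereg, the epiregulin gene, had the smallest p of all 7 lists. Its counts were 9, 2 and 1 in the TAC-labelled libraries and 20, 247 and 110 in the Sham-labelled ones, with a log2 difference of -4.68 (SE 0.96, adjusted p = 0.0606 in edgeR and 2.02e-06 in DESeq2). The groups did not overlap, and Sham 2 and Sham 3 held nearly all its reads. Btc, the betacellulin gene (log2 difference -0.14), and Nrg4, the neuregulin-4 gene (0.46), did not pass, and Areg, Epgn and Nrg3 were below the filter. The list of sheddases and other genes tied to ligand precursor processing held 14 genes, of which 12 had a negative log2 difference (median -0.28). It also holds Timp3 (-0.41), which encodes a metalloprotease inhibitor, so the count of signs is not a direction of processing. Adam9, a metalloprotease known to shed HB-EGF, had 13.9, 10.7 and 12.7 FPKM in the TAC-labelled libraries and 16.9, 29.7 and 21.8 FPKM in the Sham-labelled ones, without overlap (log2 difference -0.81, adjusted p = 0.107 in edgeR and 0.0140 in DESeq2). The metalloprotease gene Adam12 stood at -2.32 (edgeR adjusted p = 0.153), with its lowest library labelled Sham inside the range of the TAC-labelled ones. Rhbdf1, which encodes the ADAM17 partner iRhom1, stood at -0.59 without overlap (edgeR adjusted p = 0.152).

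Receptor inhibitors and ubiquitin ligases had a median log2 difference of -0.07 over 20 genes, 14 of them negative. The smallest p-values belonged to Erbb2ip, which encodes the ErbB2-binding scaffold erbin (-0.37), the phosphatase gene Ptpn1 (-0.42) and Lrig3, of a family that includes receptor inhibitors (-0.50), with edgeR adjusted p-values of 0.169, 0.175 and 0.199. The adaptors and the RAS-ERK branch had a median of -0.02 over 21 genes. Shc1, the gene of an adaptor that docks on active receptors, had 2.98, 3.10 and 2.96 FPKM in the TAC-labelled libraries and 3.74, 4.31 and 4.59 FPKM in the Sham-labelled ones (log2 difference -0.42, adjusted p = 0.106 in edgeR and 0.0444 in DESeq2). Its libraries did not overlap between groups, nor did those of Ptpn11, the gene of the phosphatase SHP2 (-0.39). The PI3K-AKT and SRC-FAK branch had a median of -0.01 over 23 genes, 12 of them negative. The kinase genes Akt2 (0.29) and Mtor (-0.30) had edgeR adjusted p-values of 0.182 and 0.250, each without overlap.

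Genes that ERK signalling is known to induce, 18 in all, had a median log2 difference of -0.21, and 13 were negative. Myc, a growth-control transcription factor gene, had 0.178, 0.181 and 0.158 FPKM in the TAC-labelled libraries and 0.297, 0.422 and 0.764 FPKM in the Sham-labelled ones (log2 difference -1.44, adjusted p = 0.0854 in edgeR and 0.00643 in DESeq2). Ier3, an immediate early gene, had 16.8, 14.0 and 17.5 FPKM against 17.9, 37.1 and 40.0 FPKM (-0.91, adjusted p = 0.132 in edgeR and 0.0292 in DESeq2), with Sham 1 next to the TAC-labelled libraries. Without Sham 1 the edgeR adjusted p of Ier3 was 0.0258, in a fit that called 397 of all genes against 217 with all 6 libraries. With any other library left out it was 0.196 to 0.344. Spred2, an inhibitor gene of the RAS-ERK branch, lay the other way, with 6.53, 6.65 and 6.66 FPKM in the TAC-labelled libraries and 4.74, 5.76 and 5.14 FPKM in the Sham-labelled ones (0.40, edgeR adjusted p = 0.119). With all 6 libraries neither direction passed the test in edgeR.

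Co-receptors and chaperones had a median of -0.27 over 12 genes. Cd9, the gene of a tetraspanin that binds the HB-EGF precursor, had 13.1, 11.4 and 14.0 FPKM in the TAC-labelled libraries and 18.0, 24.3 and 19.3 FPKM in the Sham-labelled ones, without overlap (log2 difference -0.62, adjusted p = 0.0933 in edgeR and 0.0187 in DESeq2). Cd44, a hyaluronan receptor gene, had 2.50, 1.80 and 2.29 against 2.31, 7.28 and 6.46 FPKM, with Sham 1 inside the range of the TAC-labelled libraries (-1.22, adjusted p = 0.138 in edgeR and 0.0162 in DESeq2, and 0.0242 in edgeR without Sham 1). Muc1, the gene of a mucin known to bind these receptors, had 5 to 25 counts per library and a log2 difference of -1.28 (edgeR adjusted p = 0.172).

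**Figure D5:**
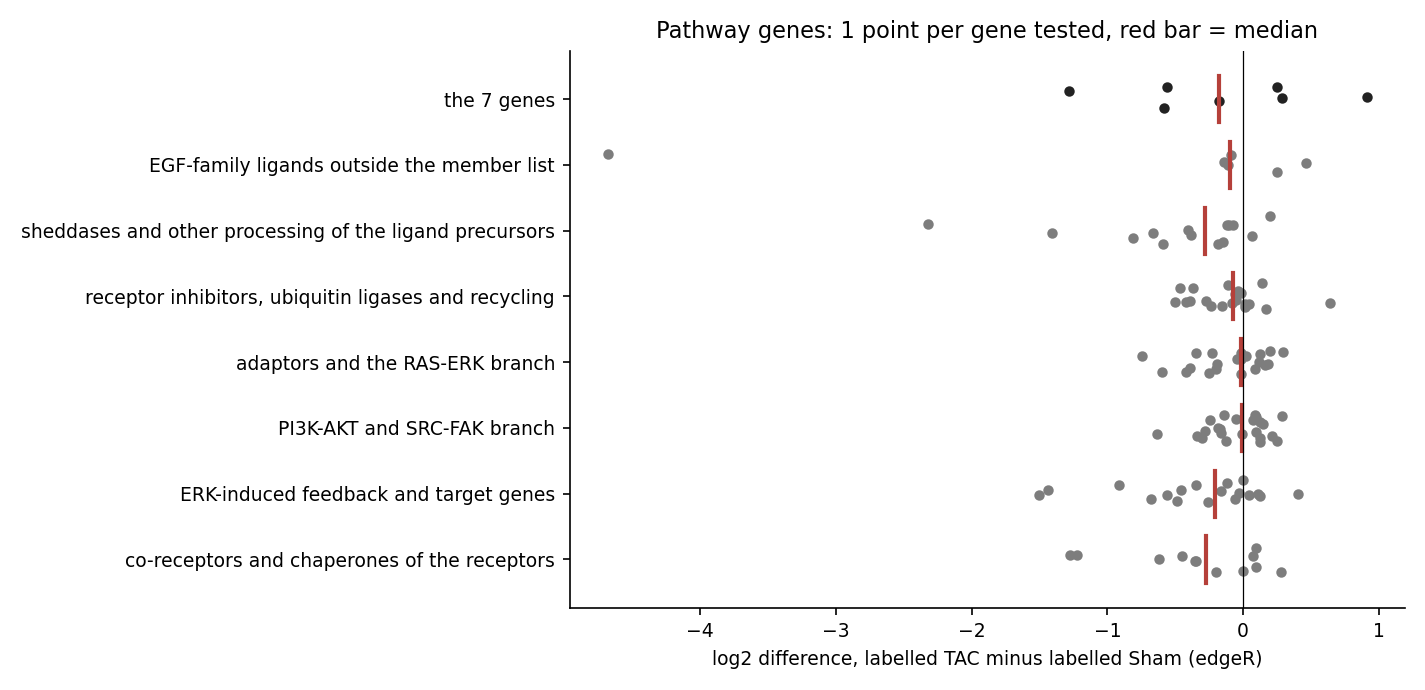
edgeR log2 differences between the labelled groups, TAC minus Sham (x axis), of the 7 genes and of the tested genes of each pathway list (y axis), 1 point per gene with the list's median as a red bar. Medians of the 7 lists lie between -0.28 and -0.01, and Ereg is the point at -4.68.

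Genes whose profile over the 6 libraries came closest to each of the 7 were found among 10063 genes, by the root mean square (RMS) difference of their centred log2 CPM. A highest or lowest library shared with such a gene largely follows from that choice. For Erbb4 the closest genes were Tcea3, an elongation factor gene (0.06), and Aldh4a1, an aldehyde dehydrogenase gene (0.08). Tcea3 had 15.7, 18.8 and 32.1 FPKM in the TAC-labelled libraries and 14.3, 9.52 and 11.1 FPKM in the Sham-labelled ones, so TAC 3 was highest as for Erbb4. Egfr was closest to Sdc4, the syndecan-4 gene (0.06), and Tmbim1 (0.08), and Erbb2 to Lig3, a DNA ligase gene (0.03), and Luc7l (0.04). The nearest genes to Erbb3 were Klhl38 and Setbp1 (both 0.09), low in the same libraries labelled TAC 3 and Sham 2. Klhl38 had 7.94 FPKM in TAC 3 and 6.96 in Sham 2, and 13.7 to 16.9 in the other 4.

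Larger RMS differences, which also grow with a gene's own range, were found for Hbegf, Errfi1 and Nrg1. Hbegf was nearest to Hspb1, the gene of the small heat shock protein HSP25 (0.20), and its pseudogene Hsp25-ps1 (0.24), whose similar sequences make their separate counts uncertain. Hspb1 had 84.4, 45.8 and 138 FPKM in the TAC-labelled libraries and 78.8, 313 and 244 FPKM in the Sham-labelled ones. Errfi1 was nearest to Btg2, an antiproliferative immediate early gene (0.26), and Sik1, a salt-inducible kinase gene (0.28), both highest in TAC 3 at 34.3 and 21.7 FPKM. Nrg1 was nearest to Ehd4 (0.12) and the lncRNA gene Bvht (0.14). Among the 7 genes themselves the closest pairs were Nrg1 with Erbb2 and Nrg1 with Egfr (both 0.37), and the farthest were Hbegf with Erbb3 and Hbegf with Erbb4 (both 1.29).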

How the data were processed

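The gene and lncRNA tables have 1 column of counts and 1 of FPKM for each of 6 libraries, and these columns were tied to libraries through the labels. GRCm38 (mm10), StringTie 1.3.0 and HISAT2 2.0.4 appear in the submitters' processing notes. Annotation, counting program, strand setting and filters are not stated there or in the headers. The counts deposited by the authors are raw whole numbers. The FPKM values deposited by the authors equal count over a length per gene and the library's total gene count. Tests were run over each whole table with edgeR 4.0.16 (quasi-likelihood, TMM, filterByExpr with a minimum count of 10, Benjamini-Hochberg) in R 4.3.3, and the SE is the absolute log2 difference over the square root of F. The lncRNA library sizes are those implied by the lncRNA FPKM. CPM values are TMM-scaled. The fit was also run on simulated counts drawn independently for each gene, and the outcome is not reported here. Shares and sums were compared by exact permutation.

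Alternatives were limma 3.58.1 on log2(FPKM + 0.1) and log2(FPKM + 1), DESeq2 1.42.0, other scalings and filters, a replicate block and leaving out each library. From each list, the 3 genes with the smallest p were named (2 of these are not reported here), and the 2 closest profiles for each of the 7 genes at a mean FPKM of at least 1 and with symbols other than Gm or Rik names. The genes and lists were chosen with earlier results of these data known.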

Additional observations from a re-analysis of the deposited data

How the results depend on the processing

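Over 15 alternatives (14 for Nrg1) Nrg1, Hbegf, Egfr and Erbb2 stayed negative and Erbb3 and Erbb4 positive. The log2 difference of Errfi1 was -0.19 and -0.14 with limma on log2(FPKM + 0.1) and log2(FPKM + 1), -0.15 with the replicate block and -0.95 without TAC 3, with a range of -0.95 to 0.66 over the 6 libraries left out; the cause of the first 3 was not tested. Of the 7 genes 0 were called, and 1 with DESeq2. Of the pathway genes 0 were called, 7 with DESeq2, 1 with library totals without TMM, 1 with no filter on low counts and 0 to 4 with 1 library left out (4 without Sham 1). Among all genes 217 were called, 1184 with DESeq2 (478 higher under the TAC label, 706 under the Sham label), 338 with library totals without TMM (42 and 296, against 49 and 168), 432 with no filter on low counts, 41 with the replicate block and 0 to 397 with 1 library left out. The counts were 0 without TAC 1 (2564 at an unadjusted p under 0.05), 10 without TAC 2, 22 without TAC 3, 397 without Sham 1, 24 without Sham 2 and 40 without Sham 3. The lncRNA count at the 7 loci was 0 in every alternative run. The difference in the Erbb3 share (2.77 percentage points) was -1.90 without TAC 1, -0.68 without TAC 2 and -2.96 without Sham 2, with a range of -2.96 to 10.9 over the 6 libraries left out. Same-numbered libraries did not deviate together (r of -0.15, -0.11 and -0.09, and 0 of 6 libraries were closest to their own number). With 3 libraries per group this check cannot settle whether the numbers pair libraries. Depth limits Nrg1 (16 to 61 counts).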
